A study of Homo sapiens with 12 samples.

Results

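The 54 genes described here act in G2 and mitosis. They were picked by name for their role, with earlier results of these data known, and all 54 were found in both tables of the series, out of 60558 genes that the tables share. Their levels were measured by RNA-seq of MDA-MB-231, 1 established human triple-negative breast cancer line. Cells with NONO knocked down and cells with PKM2 knocked down were each compared with their own negative control (NC) cells, which the labels give as wild type. Each of the 4 groups had 3 libraries, and the control groups were not shared. The series design gives siRNA as the means of knockdown, and the study's siRNA methods a dose of 25 nM, while its RNA-seq methods name no reagent. NONO is a nuclear RNA- and DNA-binding protein, and PKM2 is the isoform of pyruvate kinase, encoded by PKM, for which the second experiment was named. The study set the experiments up to look for genes that both proteins act on, and the question here is how the genes of cell division moved in each.

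Cells enter mitosis when cyclin B bound to CDK1 is freed from inhibitory phosphorylation by CDC25 phosphatases, against the kinases WEE1 and PKMYT1. The spindle checkpoint then holds the anaphase-promoting complex until kinetochores are attached, after which separase cuts cohesin and the cell divides. Transcription of these genes peaks in G2 and M, and is known to be bound by the MuvB complex with MYBL2 and FOXM1, largely at a promoter element called the cell cycle homology region (CHR) and at CCAAT boxes bound by NF-Y.

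Promoters of 45 of the 54 genes were matched in the RefSeq table of GRCh38.p14, each from 250 bases before to 50 bases after a start site. The CHR letters, TTTGAA on either strand (TTCAAA) or TTCGAA, which reads the same on both, stood in the promoters of 34 genes (75.6%), against 19.5% of the 27305 genes in the table. CCAAT, or ATTGG on the other strand, stood in 37 (82.2%) against 39.7%, and both in 28 (62.2%) against 7.85%. A list of 35 S phase genes, of which 30 were matched, held the CHR letters in 2 (6.67%) and CCAAT in 18 (60%). The windows printed here run over the 100 bases before the start site, and were taken only from the 14 genes, of 35 with 1 promoter, that hold both motifs there. They show how the motifs lie, and since each was chosen for holding them they say nothing of direction. The 3 such genes with the largest rise and the 3 with the largest fall after PKM2 knockdown are given. HMMR (chr5:163460532-163460631, plus strand), KIF4A (chrX:70290004-70290103, plus strand) and KIF18A (chr11:28108157-28108256, minus strand) rose after PKM2 knockdown. MKI67 (chr10:128126424-128126523, minus strand), ESPL1 (chr12:53268199-53268298, plus strand) and KIF11 (chr10:92593030-92593129, plus strand) fell. CCNB2 (chr15:59105046-59105145, plus strand) passed the test in neither knockdown. Capitals mark the CHR letters and CCAAT in either orientation, and motifs that adjoin or overlap share 1 run of capitals.
HMMR: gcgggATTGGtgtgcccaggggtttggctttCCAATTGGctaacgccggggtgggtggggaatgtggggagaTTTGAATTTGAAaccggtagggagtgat
KIF4A: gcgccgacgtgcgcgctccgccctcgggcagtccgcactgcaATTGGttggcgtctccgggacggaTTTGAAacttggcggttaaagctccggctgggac
KIF18A: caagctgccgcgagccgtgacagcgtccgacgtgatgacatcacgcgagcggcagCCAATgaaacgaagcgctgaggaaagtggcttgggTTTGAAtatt
MKI67: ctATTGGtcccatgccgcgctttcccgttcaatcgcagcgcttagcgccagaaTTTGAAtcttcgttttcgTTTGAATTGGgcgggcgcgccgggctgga
ESPL1: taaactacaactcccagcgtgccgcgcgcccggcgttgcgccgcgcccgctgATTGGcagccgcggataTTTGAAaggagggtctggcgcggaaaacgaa
KIF11: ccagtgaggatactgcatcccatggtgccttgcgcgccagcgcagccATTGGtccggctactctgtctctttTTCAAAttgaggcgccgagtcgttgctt
CCNB2: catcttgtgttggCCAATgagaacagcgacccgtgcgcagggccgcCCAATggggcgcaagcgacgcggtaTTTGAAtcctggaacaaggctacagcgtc

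Of the members with a matched promoter that rose after PKM2 knockdown, 17 of 22 (77.3%) held the CHR letters, and of those that fell, 9 of 12 (75%). CCAAT stood in 18 of the 22 (81.8%) and in 9 of the 12 (75%). Across all member promoters, 28 of 48 CHR motifs and 54 of 81 CCAAT motifs, overlapping ones counted each, began within the 100 bases before a start site. A match of letters is a description and was not tested for binding.

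**Figure D1:**
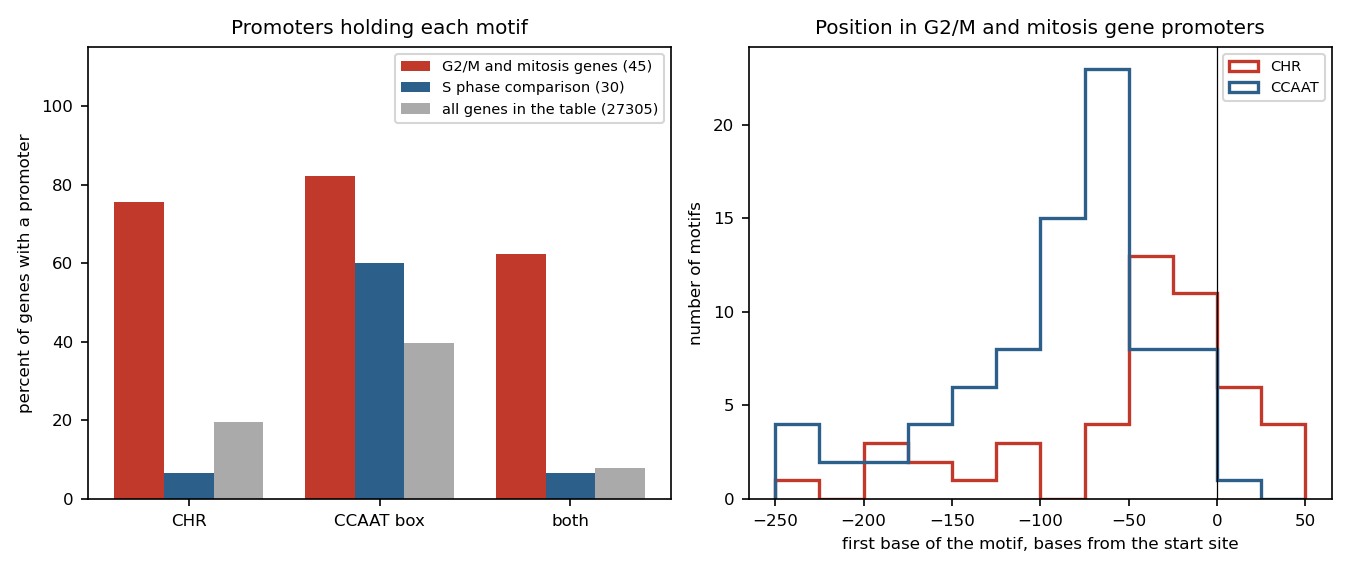
Left, the percent of genes with a matched promoter that hold the CHR letters, CCAAT or both, for the members (red, 45 genes), the S phase list (blue, 30) and all genes in the table (grey, 27305). Right, the number of motifs by the position of their first base, in bases from the start site, in member promoters. CHR letters stood in 75.6% of member promoters against 19.5% of all, and the CCAAT counts peak farther upstream than the CHR counts.

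Library depth was 19861762 to 28455268 estimated counts. Pairs of replicates differed by a chi-square of 2.33 to 12.3 per degree of freedom over genes, and the libraries that stood farthest from the others of their group were NC replicate 1 in the NONO experiment and knockdown replicate 3 in the PKM2 experiment. The labels do not say whether replicates came from separate cultures, so P values measure the spread between libraries, which may be technical. NONO was at 222 to 233 TPM in its NC libraries and 47.2 to 50.1 TPM in its knockdown libraries, and PKM, read over all isoforms, at 1769 to 1838 and 164 to 170 TPM in the PKM2 experiment. VIM, CD44, EGFR and AXL, which mark this mesenchymal-like line, had group means of at least 56.2 TPM in all 4 groups, while ESR1, PGR and CDH1 had group means of at most 0.157 TPM. ERBB2, also listed as a gene that should be low, had group means of 14.3 to 30.8 TPM.

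Per length, the levels of the members spanned a wide range in control cells. In the controls for NONO the securin gene PTTG1 was highest, at 460 ± 10.6 TPM (SD, n = 3), followed by UBE2C, which supplies ubiquitin to the anaphase-promoting complex, at 343 ± 5.29, the checkpoint gene BUB3 at 306 ± 11.4, and the cyclin CCNB1 at 278 ± 11.4 TPM. CDK1 (122 ± 1.33 TPM) and the cleavage furrow gene ANLN (120 ± 4.27 TPM) did not differ beyond their spread. HMMR was lowest, at 4.84 ± 0.378 TPM, then the phosphatase CDC25C at 16.7 ± 1.21 TPM. In the controls for PKM2, PTTG1 (416 ± 13.2 TPM) and HMMR (2.96 ± 0.085 TPM) again stood at the ends, and BUB3 (349 ± 15.2 TPM) lay above UBE2C (306 ± 10.3 TPM).

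All 54 genes passed the filter on low counts in both experiments. After NONO knockdown 32 rose (59.3%) and 1 fell, WEE1, by edgeR's quasi-likelihood test at an adjusted P below 0.05, beside 16.2% of all 14832 genes tested that rose and 17.2% that fell. After PKM2 knockdown 29 rose (53.7%) and 12 fell (22.2%), beside 33.6% and 34.7% of 15524 genes. All of these changes were below 2-fold, the largest being a rise of AURKB by 85.1% and a fall of MKI67 by 42.7%, both after PKM2 knockdown. None of the 54 was a DEG, with a fold change above 2 and P below 0.05, in either experiment, where 2.95% and 20.8% of all genes were. The log2 fold changes ran from -0.28 to 0.62 after NONO knockdown (median 0.14) and from -0.80 to 0.89 after PKM2 knockdown (median 0.19), and the median over all genes tested was -0.01 in both. Median sizes without the sign were 0.15 and 0.33 for the members, beside 0.19 and 0.47 for all genes. All 3 knockdown libraries lay above all 3 NC libraries for 36 members after NONO knockdown and below them for 3, beside 22.6% and 23.5% of all genes. After PKM2 knockdown these numbers were 30 and 14, beside 35% and 36.9%. In bulk RNA, fewer or more cells in G2 and M cannot be told apart from less or more RNA per cell.

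As a share of all counts, the 54 genes took 0.877% to 0.918% in the NC libraries of the NONO experiment and 0.964% to 0.978% in the knockdown libraries. In the PKM2 experiment they took 0.809% to 0.822% and 0.837% to 0.870%. The groups did not overlap in either experiment. Summed TPM was 5052 to 5248 in NC and 5405 to 5499 after NONO knockdown, and 4720 to 4850 in NC and 5202 to 5397 after PKM2 knockdown, again without overlap. Limma on TPM, in place of edgeR on counts, called only 7 members higher after NONO knockdown and 0 lower, with a median of 0.09, beside 5.01% of all genes higher and 11.3% lower on log2(TPM + 1). The median over all genes there was -0.05. The 7 were CDC25B, AURKB, CENPA, BIRC5, KIF4A, DLGAP5 and MYBL2, and the other 26 calls after NONO knockdown, WEE1 among them, were lost. Leaving out 1 library at a time, the number that rose after NONO knockdown was 20 to 39. It was 39 without NC replicate 1, 20 without NC or knockdown replicate 3, and 21 without NC or knockdown replicate 2, while the share of all genes that rose ran from 10.9% to 21%.

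**Figure D2:**
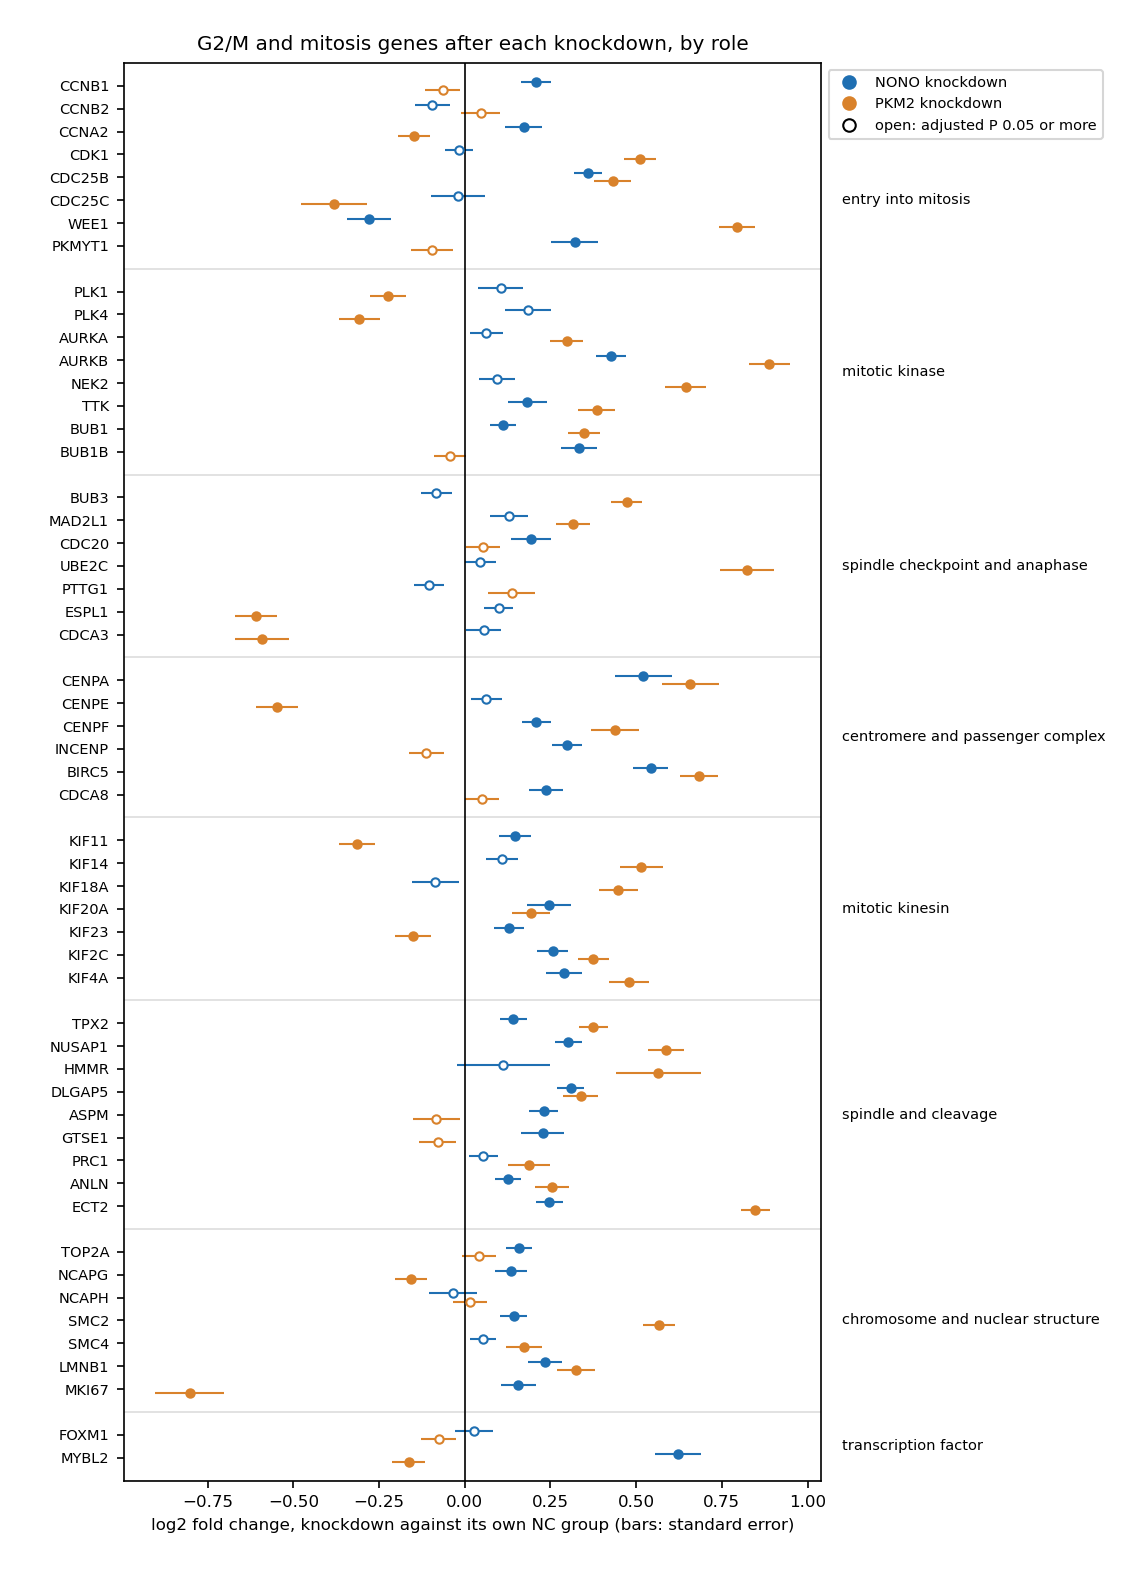
Log2 fold change (horizontal axis) of each of the 54 genes, grouped by role, after NONO knockdown (blue) and PKM2 knockdown (orange), each against its own 3 NC libraries. Bars are standard errors and open points did not pass an adjusted P of 0.05. Blue points lie between -0.28 and 0.62, mostly right of 0, and orange points spread from -0.80 to 0.89.

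Among the 8 genes of entry into mitosis, 4 rose and 1 fell after NONO knockdown, and 3 rose and 2 fell after PKM2 knockdown. CCNB1, the main mitotic cyclin (chr5:69167010-69178245, GRCh38), was at 271, 247 and 251 CPM in the NC libraries and at 297, 294 and 297 CPM in the NONO knockdown libraries. It lay higher in every knockdown library, by a log2 fold change of 0.21 ± 0.04 (SE, adjusted P = 0.00421, edgeR). In the PKM2 experiment CCNB1 was at 276, 271 and 266 CPM in NC and 245, 258 and 274 CPM after knockdown, with overlapping groups and a log2 fold change of -0.06 (adjusted P = 0.276). Limma on TPM did call a fall of CCNB1 there, from 285 ± 7.63 to 247 ± 4.18 TPM (SD, n = 3). CCNB1 was also called lower without PKM2 knockdown replicate 3 (-0.10). CDK1, the kinase it binds, gave the other picture. It was at 146, 142 and 141 CPM in NC and 142, 139 and 143 CPM after NONO knockdown, a log2 fold change of -0.02 (adjusted P = 0.795). After PKM2 knockdown CDK1 went from 147, 145 and 144 CPM to 208, 199 and 214 CPM, and rose by 0.51 ± 0.05 on the log2 scale (adjusted P = 1.37e-06). CCNA2, the cyclin of S phase and G2, rose by 0.17 ± 0.06 after NONO knockdown (adjusted P = 0.0326) and fell by 0.15 ± 0.05 after PKM2 knockdown (adjusted P = 0.016). The rise was lost on TPM and when any 1 library other than NC replicate 1 was left out, and the fall under DESeq2.

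WEE1, which phosphorylates and holds back CDK1, changed in opposite directions. Its levels in the NONO experiment were 65.3, 67.3 and 57.6 CPM in NC and 51.2, 51 and 54.6 CPM after knockdown. All knockdown libraries lay below the controls, and WEE1 fell by 0.28 ± 0.07 on the log2 scale (adjusted P = 0.00686). In the PKM2 experiment it was at 57.9, 62.2 and 57.2 CPM in NC and 103, 101 and 103 CPM after knockdown, far outside the control range, a rise of 0.79 ± 0.05 (adjusted P = 9.06e-08). CDC25B, a phosphatase that acts against WEE1, rose in both, by 0.36 ± 0.04 (adjusted P = 6.32e-05) and 0.43 ± 0.05 (adjusted P = 2.12e-05). CDC25C, of the same family, fell by 0.38 ± 0.10 after PKM2 knockdown (adjusted P = 0.00403), and its value after NONO knockdown was -0.02. PKMYT1, the membrane-bound partner of WEE1 in restraining CDK1, rose by 0.32 ± 0.07 after NONO knockdown (adjusted P = 0.00389). The exons of PKMYT1 share 1233 bases with PAQR4 on the other strand and those of CDC25C 293 bases with FAM53C, and the sources used here do not say whether counting used strand, so reads of such pairs cannot be told apart.

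Of 8 mitotic kinases, 4 rose and 0 fell after NONO knockdown, and 5 rose and 2 fell after PKM2 knockdown. AURKB, the kinase of the chromosomal passenger complex, rose in both. It was at 79.0, 80.2 and 80.5 CPM in NC and 107, 105 and 110 CPM after NONO knockdown (0.43 ± 0.04, adjusted P = 3.13e-05), and at 81.5, 83.7 and 80.3 CPM in NC and 144, 146 and 164 CPM after PKM2 knockdown (0.89 ± 0.06, adjusted P = 9.32e-08). No AURKB values overlapped, and the second rise was the largest of any member in either experiment. AURKA, the centrosome and spindle pole kinase, rose after PKM2 knockdown by 0.30 ± 0.05 (adjusted P = 0.000186), and its log2 fold change after NONO knockdown was 0.06 (adjusted P = 0.354). PLK1, which acts from mitotic entry to cytokinesis, was at 150, 143 and 158 CPM in NC and fell to 124, 132 and 131 CPM after PKM2 knockdown, by 0.22 ± 0.05 (adjusted P = 0.00245). Its NC libraries in the NONO experiment, at 169, 142 and 142 CPM, enclosed all 3 knockdown values of 165, 167 and 156 CPM, with a log2 fold change of 0.10 (adjusted P = 0.252). PLK4, the centriole duplication kinase, fell by 0.31 ± 0.06 after PKM2 knockdown (adjusted P = 0.000667). BUB1, a checkpoint kinase at kinetochores, rose by 0.11 ± 0.04 (adjusted P = 0.0468, not past the test with a replicate block) and 0.35 ± 0.05 (adjusted P = 3.83e-05). The first of these calls was also lost on TPM, without the count filter, and when any 1 library other than NC replicate 1 was left out. BUB1B, a relative of BUB1, rose after NONO knockdown, by 0.33 ± 0.05 (adjusted P = 0.000588), with -0.04 after PKM2 knockdown (adjusted P = 0.446). The exons of PLK1 share 553 bases with an antisense gene.

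Of the 7 genes of the spindle checkpoint and anaphase, CDC20 alone passed the test after NONO knockdown, and 3 rose and 2 fell after PKM2 knockdown, shares near those of all genes. UBE2C was at 126, 114 and 121 CPM in NC and 195, 201 and 243 CPM after PKM2 knockdown, with no overlap, a rise of 0.82 ± 0.08 (adjusted P = 1.93e-06). Its values in the NONO experiment, 118, 122 and 119 CPM in NC and 118, 126 and 126 CPM after knockdown, overlapped (0.05, adjusted P = 0.468). ESPL1 encodes separase, the protease that cuts cohesin at anaphase. It went from 61.8, 59.7 and 65.9 CPM to 39.7, 43.3 and 39.9 CPM after PKM2 knockdown, and fell by 0.61 ± 0.06 (adjusted P = 3.58e-06), while its value after NONO knockdown was 0.10 (adjusted P = 0.0995). CDC20, an activator of the anaphase-promoting complex, rose by 0.19 ± 0.06 after NONO knockdown (adjusted P = 0.0251), with 205, 173 and 181 CPM in NC and 210, 211 and 217 CPM after knockdown, a call lost on TPM and when any 1 library other than NC replicate 1 was left out. After PKM2 knockdown its log2 fold change was 0.05 (adjusted P = 0.37). BUB3 and MAD2L1, both checkpoint proteins, rose after PKM2 knockdown by 0.47 and 0.32, and CDCA3, a trigger of mitotic entry, fell by 0.59.

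**Figure D3:**
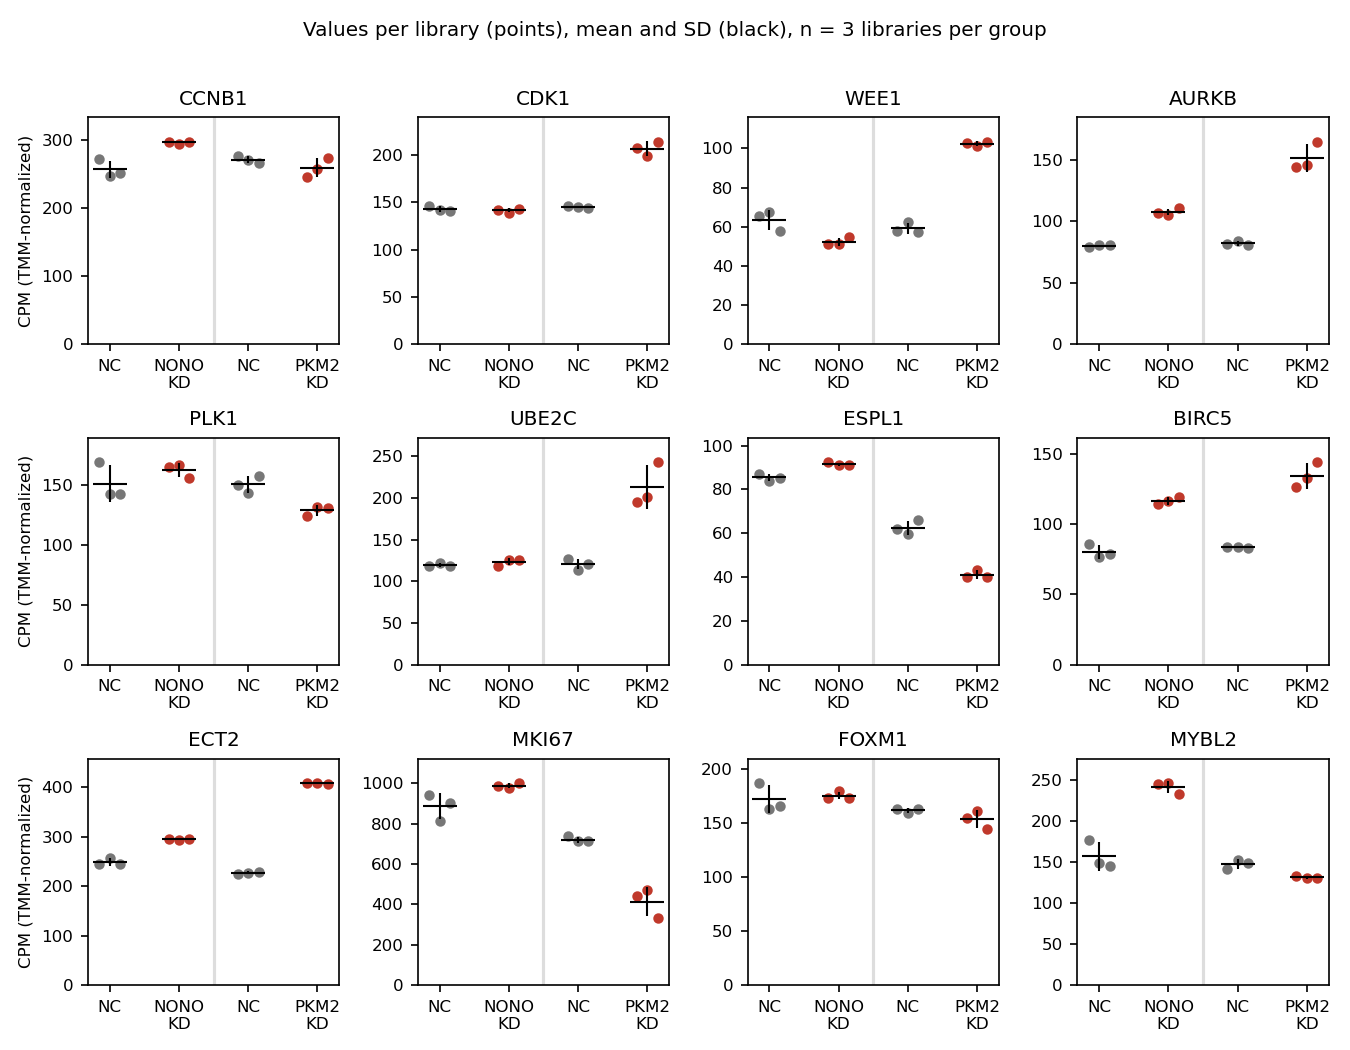
CPM (vertical axis, from 0) of 12 members in each library, as points, with the mean and SD of 3 libraries in black, for NC (grey) and knockdown (red) of the NONO experiment at left and the PKM2 experiment at right of each panel. WEE1 lies at 51 to 54.6 CPM after NONO knockdown and 101 to 103 CPM after PKM2 knockdown, and MKI67 at 976 to 1003 and 332 to 470 CPM.

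Of the 6 genes of the centromere and the passenger complex, 5 rose after NONO knockdown and 3 after PKM2 knockdown, where CENPE fell. BIRC5, which encodes survivin, the passenger subunit that brings AURKB to the centromere, was at 85.8, 76.6 and 78.7 CPM in NC and 114, 117 and 120 CPM after NONO knockdown (0.54 ± 0.05, adjusted P = 1.98e-05). In the PKM2 experiment BIRC5 was at 84.1, 84.2 and 83.0 CPM and 126, 133 and 144 CPM (0.68 ± 0.06, adjusted P = 5.35e-07). Neither pair of groups overlapped. CENPA, the centromeric histone, likewise rose by 0.52 ± 0.08 and 0.66 ± 0.08. The other passenger subunits INCENP and CDCA8 rose after NONO knockdown, by 0.30 and 0.24, and did not pass the test after PKM2 knockdown (-0.11 and 0.05). CENPE, a kinetochore motor, fell from 101, 99.2 and 96.3 CPM to 68.9, 71.9 and 61.9 CPM after PKM2 knockdown, by 0.55 ± 0.06 (adjusted P = 7.66e-06).

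Among 7 mitotic kinesins, the motors that build the spindle and move chromosomes, 5 rose (71.4%) after NONO knockdown, beside 16.2% of all genes. After PKM2 knockdown 5 rose (71.4%) and 2 fell (28.6%), beside 33.6% and 34.7% of all genes. KIF4A, a chromosome-bound motor, rose in both, by 0.29 ± 0.05 (adjusted P = 0.00145) and 0.48 ± 0.06 (adjusted P = 1.59e-05). KIF14, a cytokinesis motor, was at 92.7, 98.2 and 96.8 CPM in NC and 142, 145 and 124 CPM after PKM2 knockdown (0.52 ± 0.06, adjusted P = 1.59e-05). KIF11, which pushes the spindle poles apart, went the other way. It was at 148, 147 and 141 CPM in NC and 119, 122 and 110 CPM after PKM2 knockdown, without overlap, a fall of 0.32 ± 0.05 on the log2 scale (adjusted P = 0.0002), and it rose by 0.15 ± 0.05 after NONO knockdown (adjusted P = 0.0324, not past the test with a replicate block). The rise of KIF11 was also lost on TPM, and without replicate 2 or 3 of either NC or knockdown.

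The 9 genes of spindle assembly and cleavage gave 7 rises (77.8%) after each knockdown and 0 falls. Of all genes, 16.2% rose and 17.2% fell after NONO knockdown, and 33.6% and 34.7% after PKM2 knockdown. ECT2, the exchange factor that switches on RhoA at the cleavage site, was at 244, 257 and 244 CPM in NC and 296, 294 and 295 CPM after NONO knockdown (0.25 ± 0.04, adjusted P = 0.000713). After PKM2 knockdown it went from 224, 227 and 230 CPM to 409, 409 and 407 CPM, with replicates close together and far above the controls (0.85 ± 0.04, adjusted P = 8.92e-09). DLGAP5, a spindle protein, rose by 0.31 ± 0.04 (adjusted P = 0.00015) and 0.34 ± 0.05 (adjusted P = 8.99e-05), and TPX2, which activates AURKA on the spindle, by 0.14 and 0.38. The call of TPX2 after NONO knockdown was lost on TPM and when any 1 library other than NC replicate 1 was left out. The exons of NUSAP1 share 1787 bases with another gene model on the same strand and those of PRC1 3181 bases, so the division of reads there is uncertain. HMMR, a spindle-associated hyaluronan receptor, was read at 4.76 to 7.62 CPM, the fewest of the 54, and rose by 0.57 ± 0.12 after PKM2 knockdown (adjusted P = 0.00163). That call was lost on TPM.

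Chromosome and nuclear structure genes held the largest fall. MKI67, the proliferation marker that coats mitotic chromosomes, was at 739, 713 and 713 CPM in NC and at 440, 470 and 332 CPM after PKM2 knockdown. All 3 knockdown libraries lay far below the controls, and MKI67 fell by 0.80 ± 0.10 on the log2 scale (adjusted P = 1.93e-05), or by 0.66 without knockdown replicate 3. After NONO knockdown it was at 988, 976 and 1003 CPM beside 944, 816 and 902 CPM in NC, a rise of 0.16 ± 0.05 (adjusted P = 0.0322). That call was lost on TPM and when any 1 library other than NC replicate 1 was left out. TOP2A, the topoisomerase that untangles sister chromatids, rose by 0.16 ± 0.04 after NONO knockdown (adjusted P = 0.00706) and was at 0.04 after PKM2 knockdown (adjusted P = 0.49). SMC2, the core subunit of condensin, rose by 0.14 ± 0.04 and 0.57 ± 0.05, and LMNB1, a nuclear lamina gene, by 0.23 ± 0.05 and 0.32 ± 0.06. On TPM both LMNB1 calls were lost, as was that of SMC2 after NONO knockdown. NCAPG, another condensin subunit, rose by 0.14 after NONO knockdown, a call lost with a replicate block, and fell by 0.16 after PKM2 knockdown, and its exons share 1631 bases with LCORL on the other strand.

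The pair of transcription factors differed. FOXM1 was at 187, 163 and 166 CPM in NC and 173, 179 and 173 CPM after NONO knockdown, and at 163, 159 and 163 CPM in NC and 154, 161 and 145 CPM after PKM2 knockdown. The groups overlapped in both experiments (0.03, adjusted P = 0.751, and -0.08, adjusted P = 0.208). MYBL2, which encodes B-MYB, was at 178, 149 and 146 CPM in NC and 245, 247 and 234 CPM after NONO knockdown, the largest rise of the 54 there (0.62 ± 0.07, adjusted P = 5.4e-05). It was at 141, 153 and 148 CPM in NC and 134, 131 and 130 CPM after PKM2 knockdown, and fell by 0.16 ± 0.05 (adjusted P = 0.01), a sign that turned (0.04) when the trend with GC content and length was taken out.

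Taking each knockdown against its own controls, 17 members rose in both experiments (31.5%), beside 9.34% of the 14525 genes tested in both. Another 6 rose after NONO knockdown and fell after PKM2 knockdown (CCNA2, KIF11, KIF23, NCAPG, MKI67 and MYBL2), beside 3.79%. These 6 pairs of opposite calls were not firm. DESeq2 kept 3 of them (KIF11, MKI67 and MYBL2), the replicate block 3 (CCNA2, MKI67 and MYBL2) and limma on TPM 1 (MYBL2), beside 1.76%, 3.22% and 1.09% of genes. The rises of CCNA2, KIF23, NCAPG and MKI67 were also lost when any 1 library other than NC replicate 1 of the NONO experiment was left out. On TPM the number that rose in both was 6, beside 2.63%. WEE1 was the only member that fell after NONO and rose after PKM2 knockdown, a pattern of 4.18% of genes, and limma on TPM no longer called its fall. Members that fell in both numbered 0, beside 9.93% of genes. In the interaction test, 17 members were higher after PKM2 than after NONO knockdown and 19 lower, beside 25.7% and 27.4% of 15995 genes. The annotation of the tables differs, and the gene length given for 4 members (CCNA2, ESPL1, CENPE and KIF23) differed between them, by at most 2.77%. The 6 genes with opposite calls and WEE1 were all among these 36. Of the 17 that rose in both, 7 rose more after PKM2 knockdown by this test, among them AURKB, ECT2, SMC2, NUSAP1 and TPX2. Limma on TPM did not call the differences of NUSAP1 and TPX2. The 5 largest differences (PKM2 minus NONO, log2 scale) were WEE1 at 1.06 ± 0.09 (adjusted P = 2e-08), MKI67 at -0.97 ± 0.13 (adjusted P = 4.9e-06), MYBL2 at -0.80 ± 0.09 (adjusted P = 1.05e-06), UBE2C at 0.76 ± 0.10 (adjusted P = 4.45e-06) and ESPL1 at -0.72 ± 0.07 (adjusted P = 3.77e-07), in edgeR. Across the 54 genes, which share libraries and are not independent, the log2 fold changes of the experiments had a Pearson r of 0.08 and a Spearman rho of 0.09.

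**Figure D4:**
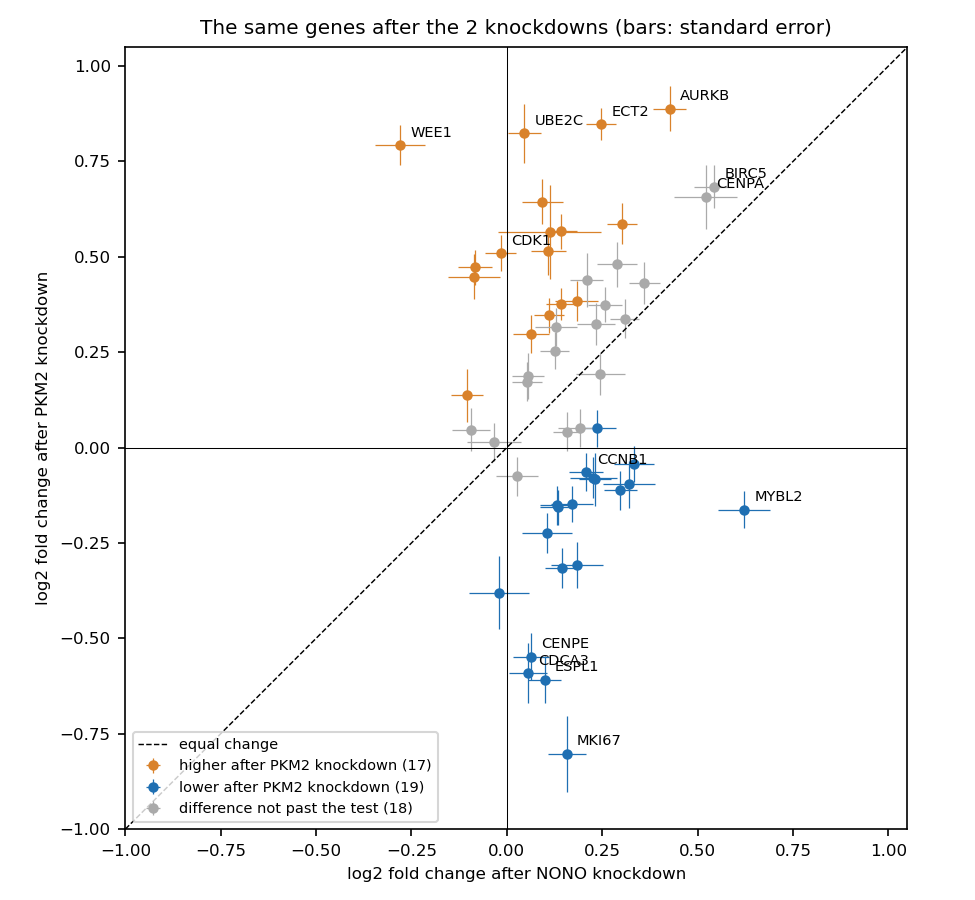
Log2 fold change of each member after NONO knockdown (horizontal) and after PKM2 knockdown (vertical), with standard errors. Orange points (17) were higher and blue points (19) lower after PKM2 knockdown in the interaction test, grey points (18) did not pass it, and the dashed line marks equal change. WEE1 lies farthest to the left, at -0.28 and 0.79, and MKI67 lowest, at -0.80 after PKM2 knockdown.

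Transcript features were set beside these values as a description. Over the 54 members the log2 fold change after NONO knockdown had a Pearson r of 0.39 with the GC content of the transcripts (Spearman rho 0.32), and that after PKM2 knockdown one of -0.21 (rho -0.23). The 29 members that rose after PKM2 knockdown had a median GC content of 41.8% and a median length of 3095 bases, and the 12 that fell 45.0% and 3780.5 bases. The 13 not called had 49.3% and 2983 bases, so neither feature ordered the groups from fall to rise. With the trend of all genes with GC content and length taken out, the members' median was 0.15 after NONO and 0.21 after PKM2 knockdown.

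Other genes of the cell cycle were counted in lists made by function, to be read against the 16.2% of all genes that rose and 17.2% that fell after NONO knockdown, and the 33.6% and 34.7% after PKM2 knockdown. Of 33 kinetochore and centromere genes, 6 rose (18.2%) and 3 fell after NONO knockdown and 15 rose (45.5%) and 8 fell after PKM2 knockdown. The 6 were 2 on TPM, 2 without knockdown replicate 1, 3 without knockdown replicate 3 and 11 without NC replicate 1. The 8 falls after PKM2 knockdown were 5 under DESeq2, and 5 without knockdown replicate 3 or NC replicate 2 of that experiment. ZW10, a kinetochore protein of the checkpoint, rose in both (log2 fold changes 1.24 and 1.28), and SKA2, which couples kinetochores to microtubules, by 0.48 and 1.43. CENPQ fell by 0.62 after NONO knockdown and rose by 0.56 after PKM2 knockdown, and SPC24 of the NDC80 complex fell by 0.74 after PKM2 knockdown. Among 26 further spindle, motor and cytokinesis genes, 7 rose (1 on TPM, 12 without NC replicate 1) and 1 fell after NONO knockdown. After PKM2 knockdown 14 rose (9 on TPM, or 7 without the filter on low values) and 7 fell. PIMREG was at -0.94 and 0.35, and TROAP at 0.32 and 0.23. The citron kinase CIT fell by 0.98 after PKM2 knockdown and the CDK-binding CKS2 rose by 0.92.

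Of 14 cohesin and condensin genes, 11 rose (78.6%) and 0 fell after NONO knockdown, and 10 rose (71.4%) and 1 fell, PDS5A, after PKM2 knockdown. The 11 were 1 on TPM with the filter on low values and 0 without it, 7 without knockdown replicate 1 and 6 without knockdown replicate 3. The 10 rises after PKM2 knockdown were 6 on TPM. SMC1A led after NONO knockdown (0.43) and NCAPD2 after PKM2 knockdown (0.66). Of 17 genes of the anaphase-promoting complex and its partners, 5 rose (0 on TPM, 3 without knockdown replicate 1) and 3 fell after NONO knockdown. After PKM2 knockdown 11 rose (7 on TPM) and 4 fell. UBE2S, which extends ubiquitin chains for this complex, fell by 0.55 after NONO knockdown and rose by 0.83 after PKM2 knockdown, while the subunit CDC23 rose by 0.29 and 0.85, ANAPC16 by 0.25 and 0.99, and ANAPC10 fell by 0.29 and fell by 0.68. Among 16 MuvB, pocket protein and partner genes, 3 rose (5 without NC replicate 1) and 3 fell, then 5 rose and 6 fell. TFDP1, the partner of E2F factors, fell by 0.96 and rose by 0.42, E2F5 fell by 0.50 and fell by 1.95, the pocket protein RBL1 rose by 0.72 and 0.64, and MYBL1, a relative of MYBL2, rose by 0.76 after PKM2 knockdown.

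The S phase list gave mostly rises after NONO knockdown and mostly falls after PKM2 knockdown. Of its 35 genes, 21 rose (60.0%) and 1 fell after NONO knockdown (median 0.23), and 7 rose (20%) and 18 fell (51.4%) after PKM2 knockdown (median -0.17), while 23 were lower after PKM2 than after NONO knockdown in the interaction test. The 21 rises were 10 on TPM, or 8 without the filter on low values. CCNE1, the G1/S cyclin, fell by 0.91 after NONO knockdown and fell by 4.92 after PKM2 knockdown, E2F2 rose by 0.72 and fell by 2.26, and GINS4 of the replicative helicase rose by 0.41 and 0.85. Of 10 tested genes of CDK inhibition and arrest, 7 fell (4 on TPM) and 1 rose (0 on TPM) after NONO knockdown, and 4 fell and 2 rose after PKM2 knockdown. CDKN1A, which encodes the CDK inhibitor p21, fell in both, from 84.4 to 89.5 TPM in NC to 32.9 to 38.6 TPM after NONO knockdown (-1.23 on the log2 scale) and from 101 to 105 TPM to 35.6 to 39.9 TPM after PKM2 knockdown (-1.27). CDKN1B, which encodes p27, fell by 0.71 and rose by 1.16, and SFN, a checkpoint adaptor, rose by 0.22 and fell by 0.81. The part of any of these genes in the members' values was not tested.

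**Figure D5:**
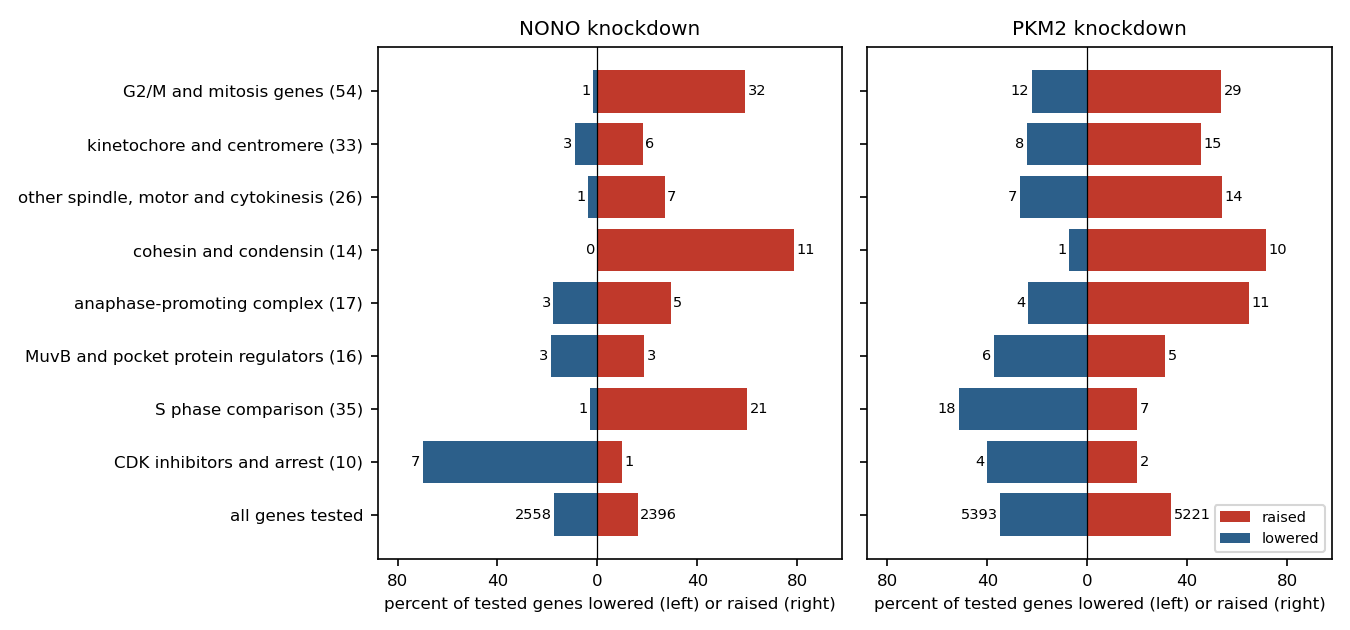
Percent of the tested genes of each list that rose (red, right) or fell (blue, left) after NONO knockdown (left panel) and PKM2 knockdown (right panel) at an adjusted P below 0.05, with the number of genes beside each bar and the number tested after the name of each list. The members gave 32 rises and 1 fall, then 29 and 12, and the S phase list 21 and 1, then 7 and 18.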

How the data were processed

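RNA-seq libraries of MDA-MB-231 cells were analysed from 2 experiments, NONO knockdown and PKM2 knockdown, with 3 NC and 3 knockdown libraries in each. The authors deposited 1 table per experiment with estimated counts per gene and library, which need not be whole numbers, and TPM values. The submitters' processing notes name the build hg19 and the tools fastp, HISAT2, StringTie, RSEM, DESeq2, edgeR and limma, without their roles. The deposited tables also hold gene lengths, the authors' mean TPM per group and their own fold changes and P values, none of which entered a result except the lengths. All per-library columns were mapped, leaving 0 unused. The tables differ in annotation, so each knockdown was tested within its table.

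Estimated counts were rounded and tested in R 4.3.3 by the quasi-likelihood method of edgeR 4.0.16, with filterByExpr and TMM factors and without a replicate block, on the 6 libraries of each experiment. The difference between the knockdowns was an interaction in 1 fit over the 12 libraries, with genes joined on their identifiers. It sets side by side changes that were each taken within a table. P values were adjusted by the Benjamini-Hochberg method over all genes tested, and a gene was called at an adjusted P below 0.05. DEGs were genes past a 2-fold change whose unadjusted P was below 0.05. Standard errors came from the F statistic. In simulated data with 200 genes changed 4-fold, edgeR recovered 190 for NONO, 185 for PKM2 and 162 for the difference. It made 16, 10 and 8 false calls. No member changed by 4-fold, so the simulation does not show how changes of the members' size are recovered. The members, the lists of other genes and the naming rule were chosen with earlier results of these data known. The rule names 12 fixed genes, the called members with the largest rise and fall in each role after each knockdown, the 5 with the largest called difference between the knockdowns, and the called extremes of each other list. HMMR, NUSAP1, PRC1 and the genes whose promoters are shown outside this rule were chosen after their values were seen, as were the genes given as examples of counts. Motifs were counted in RefSeq promoters on GRCh38.p14. Gene coordinates are of GENCODE 29 on GRCh38 and give location only. Alternatives were DESeq2 1.42.0, relative log expression (RLE) factors, no count filter, a replicate block, limma 3.58.1 on log2(TPM + 1), keeping genes whose TPM averaged 1 or more, on log2(TPM + 0.1) or without that filter, a trend with length or with GC content and length taken out in 20 bins, and each library left out. Depth was 19861762 to 28455268 counts per library.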

Additional observations from a re-analysis of the deposited data

Results flagged for a closer look

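For 36 of the 54 members the change after PKM2 knockdown differed from the change after NONO knockdown, by the interaction test of edgeR over the 12 libraries at an adjusted P below 0.05. Of all 15995 genes tested, 25.7% were higher and 27.4% lower by the same test, so such a difference was common. Each value here is the log2 fold change after PKM2 knockdown minus that after NONO knockdown, each against its own NC group. It was above 0 for 17 genes, namely WEE1 1.06, UBE2C 0.76, ECT2 0.59, BUB3 0.54, NEK2 0.54, KIF18A 0.52, CDK1 0.51, AURKB 0.45, HMMR 0.44, SMC2 0.41, KIF14 0.39, NUSAP1 0.27, PTTG1 0.23, BUB1 0.22, AURKA 0.22, TPX2 0.22 and TTK 0.19. It was below 0 for 19 genes, namely CDCA8 -0.20, CCNB1 -0.29, KIF23 -0.29, NCAPG -0.30, GTSE1 -0.32, ASPM -0.33, CCNA2 -0.33, PLK1 -0.34, CDC25C -0.37, BUB1B -0.39, INCENP -0.42, PKMYT1 -0.43, KIF11 -0.47, PLK4 -0.51, CENPE -0.62, CDCA3 -0.66, ESPL1 -0.72, MYBL2 -0.80 and MKI67 -0.97. The knockdowns were separate experiments with separate controls, so anything that differed between the experiments and touched only 1 of the groups in them cannot be told apart from the knockdown itself. WEE1, CCNA2, KIF11, KIF23, NCAPG, MKI67 and MYBL2 also passed edgeR's test in both experiments with opposite signs, but of these 7 only MYBL2 did so by limma on TPM, WEE1, KIF11, MKI67 and MYBL2 by DESeq2, and WEE1, CCNA2, MKI67 and MYBL2 with a replicate block. Of the 36 differences, limma on log2(TPM + 1) did not call those of CDC25C, PLK4, AURKA, TTK, BUB1, PTTG1, INCENP, KIF14, TPX2, NUSAP1 and ASPM. Its other settings lost BUB1B in place of PTTG1. A replicate block lost TTK, PTTG1 and HMMR, and DESeq2 lost CDCA8 and HMMR. TTK, PTTG1, CDCA8 and HMMR were each also lost in some fits with 1 library left out. Single libraries were not tested for standing apart within a gene, since no group had more than 3.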

How the results depend on the processing

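No called change of a member turned in sign under any alternative, except MYBL2 after PKM2 knockdown, at 0.0419 with the GC content and length trend taken out. The counts of members that rose and fell stayed within 1.5 times under DESeq2, RLE factors and no count filter. Limma on TPM gave 7 rises and 0 falls after NONO knockdown under each of its 3 settings, and medians of 0.0935 (pseudocount 0.1) or 0.0918 (pseudocount 1) after NONO knockdown, 0.0856 or 0.0847 after PKM2 knockdown, and -0.0155 or -0.0149 for the difference, of the other sign than the 0.09 of edgeR, with 11 higher members on log2(TPM + 1). On log2(TPM + 1) the median over all genes was also lower, at -0.05 after NONO knockdown, -0.09 after PKM2 knockdown and -0.05 for the difference. The members' median less that of all genes was 0.14, 0.18 and 0.03 there, beside 0.15, 0.205 and 0.11 in edgeR. Without the filter on low values it was 0.11, 0.11 and -0.0015. The cause of these moves was not tested. After PKM2 knockdown limma on TPM lost the rises of MAD2L1, KIF20A, HMMR, ANLN, SMC4 and LMNB1, and gained falls of CCNB1 and PKMYT1. Without the filter on low values the rise of TTK was lost too. By a fold change above 2 with P below 0.05, 0 members rose and 0 fell in either experiment. Leaving out 1 library gave 20 to 39 rises and 1 fall after NONO knockdown, 27 to 30 rises and 10 to 13 falls after PKM2 knockdown, and 14 to 18 higher and 18 to 21 lower members for the difference, with medians of 0.13 to 0.18, 0.17 to 0.22 and 0.07 to 0.12. Fewer libraries lower the power of each such test. The rises of CCNA2, BUB1, CDC20, KIF23, TPX2, ANLN, NCAPG, SMC2 and MKI67 after NONO knockdown held only in the fit without NC replicate 1.

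Deviations from the group means of libraries with equal replicate numbers correlated at -0.07 to 0.04, beside -0.07 to 0.10 for unequal numbers. These values gave no sign that the replicate number pairs the samples, but 3 libraries per group cannot exclude it. With the number as a replicate block, 26 members rose and 1 fell after NONO knockdown (TTK, BUB1, KIF11, KIF23, ANLN and NCAPG were lost), 29 rose and 12 fell after PKM2 knockdown, and 15 were higher and 19 lower in the difference.

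Values that had not passed the test changed sign as follows. On TPM with a pseudocount of 0.1 or 1, after NONO knockdown AURKA was at -0.00955 or -0.0095, UBE2C at -0.0263 under both, CENPE at -0.0503 or -0.0482 and FOXM1 at -0.0362 or -0.0359, and after PKM2 knockdown CDC20 was at -0.0736 or -0.0733, TOP2A at -0.12 or -0.11 and SMC1A at -0.10. UBE2C after NONO knockdown was at -0.0038 with the length trend taken out and at -0.0202 with GC content too, where TOP2A was at -0.0387 and FOXM1 at 0.0266 after PKM2 knockdown. With 1 library left out, the values after NONO knockdown ran from -0.0257 to 0.00917 for CDK1, from -0.0514 to 0.0153 for CDC25C and from -0.0039 to 0.1004 for FOXM1. A further 42 uncalled values of genes outside the naming rule were not followed 1 by 1, and 20 of them, of sizes up to 0.17, changed sign in at least 1 setting. That limit, and the spread against which a median was judged to have moved, were set after these values had been seen. That spread is the SD over libraries of both groups, 0.04 after NONO knockdown. Against the knockdown libraries alone, 0.006, the median after NONO knockdown would also have moved under DESeq2 (0.15), RLE factors (0.15) and the length trend (0.16), from 0.14.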
